A study of Macaca mulatta with 29 samples.

Results

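Perfluorooctanoic acid (PFOA) is a fluorinated surfactant that persists in the environment and in blood. RNA from rhesus macaque embryonic stem cells (line ORMES-6) kept with PFOA at 100 nM for 4 weeks was compared with RNA from cells given the methanol vehicle, 5 libraries against 5. The comparison covers the genes whose mean over these 10 libraries was at least 1 FPKM (fragments per kilobase of transcript, scaled to library size, so that levels can be compared between genes), 11059 of the 16048 genes in the deposited table. Of the 4989 genes left out, 758 were listed at 0 in all 10 libraries; 1025 genes were kept with a mean between 1 and 2 FPKM, and 862 were left out with a mean between 0.5 and 1.

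All groups shared the same line, grown as colonies in 5% oxygen on mitotically inactivated fibroblasts of mouse embryos, in serum-containing medium renewed every day. The other groups of the series were given atrazine at 30 uM, di(2-ethylhexyl) phthalate (DEHP) at 5 uM, tributyltin at 25 nM or bisphenol A at 10 nM, with 5 libraries each except 4 for DEHP. Every treatment occupied a single 6-well plate, so plate and compound cannot be told apart, and nothing in the labels says that wells came from separate cultures: p-values measure the spread between these libraries. The labels set the PFOA dose beside an average of 94 nM in human serum.

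As background, PFOA binds and activates peroxisome proliferator-activated receptor alpha (PPARA), a fatty acid sensor that switches on genes of fatty acid oxidation, most clearly in rodent liver. Cells also sense oxygen: prolyl hydroxylases such as EGLN1 use oxygen to mark the alpha subunits of hypoxia-inducible factor (HIF) for destruction, and when oxygen falls HIF pairs with ARNT and raises genes for glucose uptake, glycolysis, pH control and the hydroxylases themselves. Pluripotent cells rely heavily on glycolysis, and many HIF target genes are expressed in them under reduced oxygen.

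The cells carried the markers of their label. Of 9 embryonic stem cell markers 8 were in the table, and their summed level was 2436 to 2892 FPKM with vehicle and 2382 to 2702 FPKM with PFOA (exact permutation test, two-sided, p = 0.103; the smallest p this design allows is 0.00794). Fibroblast markers, of which 17 of 19 were in the table, would cover any feeder RNA that was counted. They summed to 297 to 340 FPKM with vehicle and 280 to 335 FPKM with PFOA (exact permutation p = 0.135). DCN was at 0 in all 10 libraries, and LUM, COL3A1 and PRRX1 stayed under 0.2 FPKM. Others were clearly expressed, with vehicle means of 173 FPKM for VIM, 47.1 for COL1A1, 35.3 for FN1 and 30.5 for COL1A2. Whether any of this RNA came from feeder cells was not tested. Summed markers of mesoderm and endoderm, neuroectoderm and trophoblast had exact permutation p-values of 0.698, 0.675 and 0.714. Of the trophoblast markers, CDX2 was at 0 throughout. GATA3 averaged 2.48 FPKM with vehicle and 2.59 FPKM with PFOA, and KRT7 1.73 and 1.31 FPKM. Depth relative to the deepest of the 10 libraries was 47.7% to 100% with vehicle and 41.2% to 94.3% with PFOA (exact permutation p = 0.587). Across genes, correlations between 2 libraries were 0.978 to 0.992 within vehicle, 0.988 to 0.995 within PFOA and 0.982 to 0.992 between them, so no library stood apart by this measure.

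With PFOA, 18 genes were lower than with vehicle and none was higher. The lower genes included STC1, EGLN1, HK2, SLC2A1, PFKFB4, KDM3A, AK4 and BHLHE40, which are known to be induced by low oxygen, together with RIMKLA, NRN1 and CLDN14. Their mean level with PFOA was 31.4% to 73.8% of the vehicle mean, a difference of -0.90 to -0.41 in log2(FPKM + 1). On that scale the change of a gene at low level comes out too small. In 15 of the 18, every PFOA library lay below every vehicle library, and in all 18 every PFOA library lay below the vehicle mean. The test was limma on all 29 libraries with Benjamini-Hochberg adjustment over the 11059 genes and a threshold of 0.05, and the 18 calls were 0.163% of the genes tested.

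The shift was small for most genes. The median difference over all genes tested was -0.01, and 52.1% of the differences were negative. At an unadjusted p under 0.05, 458 genes (4.14%) were lower and 186 (1.68%) were higher; after rescaling the libraries by median ratios these counts were 357 and 245, and after quantile normalization 379 and 204. All PFOA libraries lay below all vehicle libraries in 112 genes (1.01%) and above them in 31 (0.28%). The typical 95% interval of a gene, not adjusted for the number of genes tested, reached 0.23 to either side. A call after adjustment needed more than that: the smallest difference among the called genes was -0.41. Differences smaller than this were mostly not detectable. As these are whole wells, fewer cells expressing a gene and less RNA per cell cannot be told apart.

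**Figure D1:**
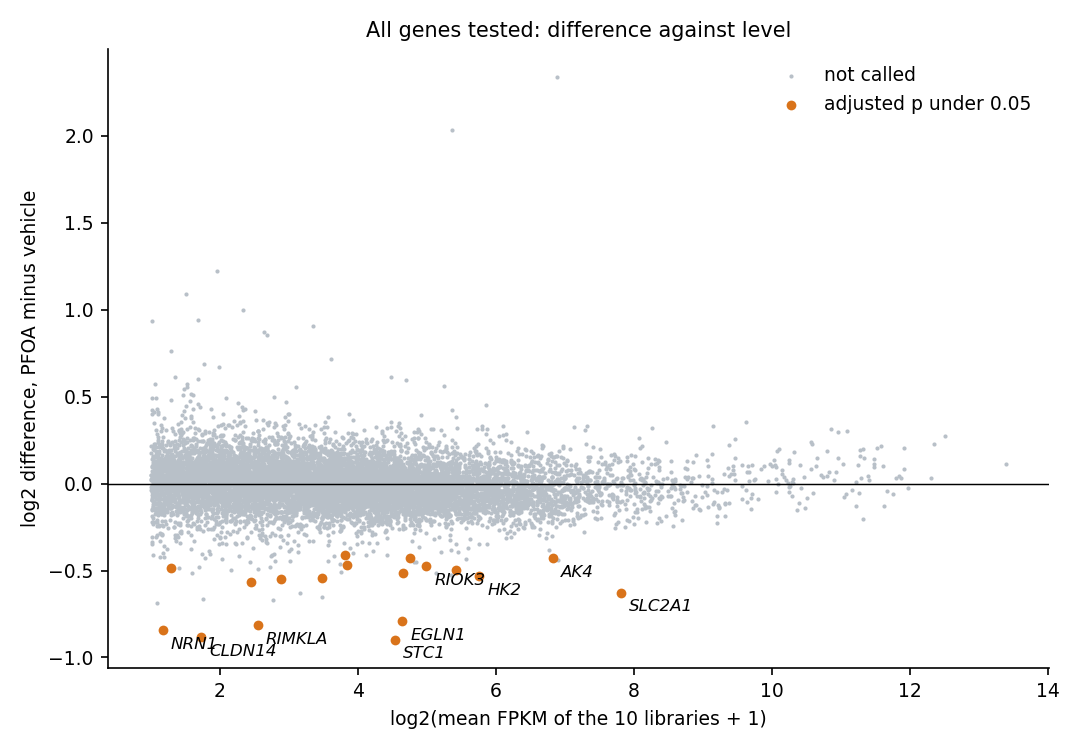
Difference in log2(FPKM + 1) between PFOA and vehicle (vertical axis) against the mean level over the 10 libraries, log2 scale (horizontal axis), for the 11059 genes tested; each point is a gene. The 18 called genes (orange) lie between -0.90 and -0.41, with SLC2A1 at the highest level among them; NNAT, at 2.34 the topmost point, was not called.

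STC1 encodes stanniocalcin 1, a secreted glycoprotein involved in calcium and phosphate handling and a known HIF target. Its level in the 5 vehicle libraries was 31.9, 34.5, 30.9, 26.5 and 22.4 FPKM, and in the 5 PFOA libraries 14.9, 16.0, 14.6, 17.9 and 12.5 FPKM. The groups did not overlap, and the lowest vehicle library still lay above the highest PFOA library. The difference was -0.90 (SE 0.11, limma adjusted p = 2.81e-05).

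EGLN1 encodes the main prolyl hydroxylase of HIF alpha, an oxygen sensor whose own gene is induced by HIF. Vehicle libraries stood at 28.3, 32.5, 37.0, 30.2 and 25.6 FPKM and PFOA libraries at 18.3, 19.1, 18.8, 17.3 and 13.4 FPKM. PFOA replicate 5 was the lowest, and the other 4 PFOA libraries lay close together. EGLN1 fell by 0.79 on the log2 scale (SE 0.10, limma adjusted p = 2.81e-05).

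RIMKLA encodes a ligase that joins N-acetylaspartate and glutamate into the neuropeptide NAAG. It was measured at 6.60, 6.77, 7.26, 6.94 and 4.71 FPKM with vehicle and at 3.37, 2.97, 3.70, 3.03 and 3.00 FPKM with PFOA. Vehicle replicate 5 was the low library of its group, and it too lay above every PFOA library. The difference was -0.82 (SE 0.10, limma adjusted p = 2.81e-05). CLDN14, a claudin of tight junctions, was in the same list of NAAG synthesis and claudin genes and ranged over 2.24 to 4.50 FPKM with vehicle and 0.720 to 1.81 FPKM with PFOA, a difference of -0.88 (adjusted p = 0.0277). Of the 13 members tested, these 2 fell and none rose, and the median of the list was -0.04; the list was written with the earlier results known, so its count is no independent evidence.

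NRN1 encodes neuritin, a small membrane-anchored protein of growing neurites. It was low in these cells, at 2.15, 1.87, 2.64, 1.71 and 1.11 FPKM with vehicle and 0.590, 0.862, 0.632, 0.497 and 0.395 FPKM with PFOA, and the groups did not overlap. The difference was -0.84 (SE 0.11, limma adjusted p = 8.70e-05). NRN1 was the only call among 9 neuroectoderm genes tested, whose median was 0.00 and turned from negative to positive under both other scalings. NES, the intermediate filament nestin, had a difference of -0.25 and did not pass (adjusted p = 0.643).

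**Figure D2:**
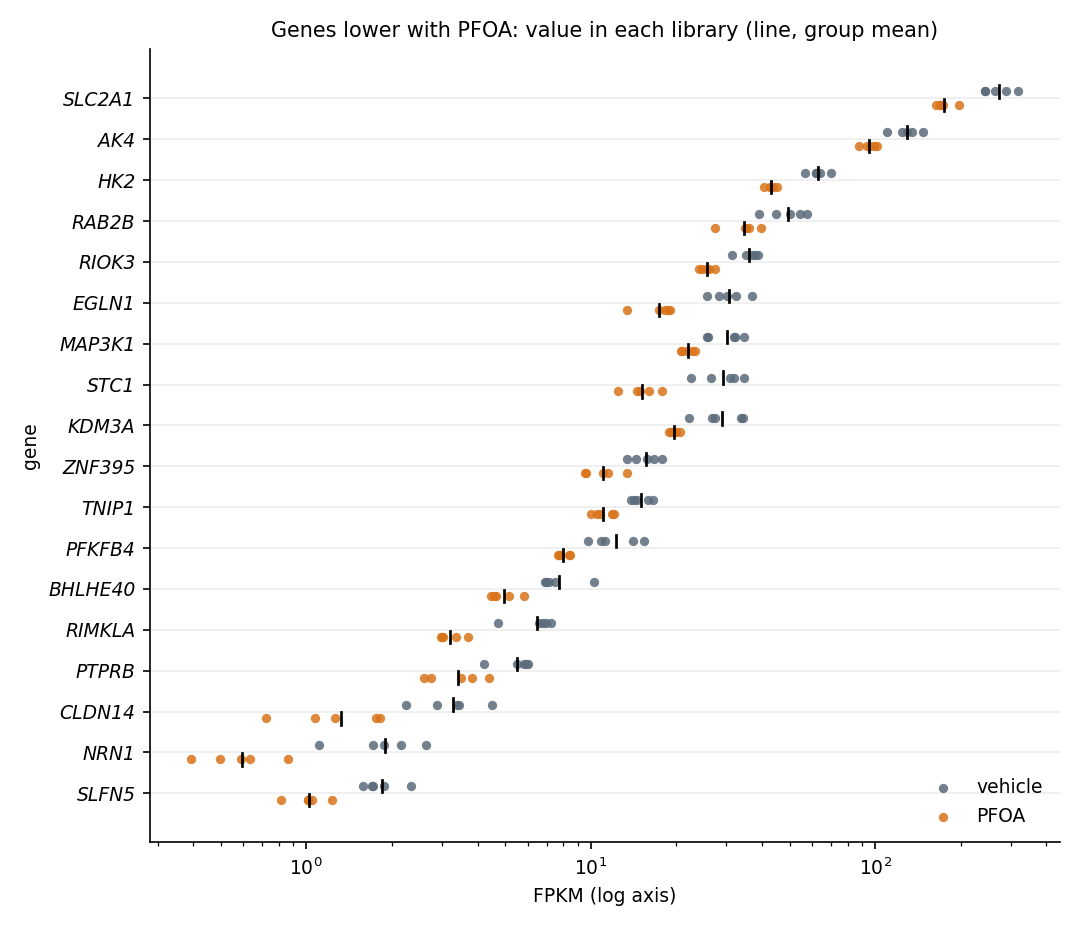
FPKM on a log axis (horizontal) of the 18 genes called lower with PFOA (vertical), ordered by vehicle mean; each point is 1 library, grey for vehicle and orange for PFOA, and the black line is the group mean of 5 libraries. The points of RAB2B, ZNF395 and PTPRB overlap between the groups; those of the other 15 genes do not.

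Among genes of glucose uptake and glycolysis, 3 of the 24 tested fell and none rose. SLC2A1, the glucose transporter GLUT1, was the most abundant gene among the calls. Its level was 319, 264, 244, 287 and 243 FPKM with vehicle and 198, 169, 170.5, 174 and 163 FPKM with PFOA. The groups were well apart, with the highest PFOA library under the lowest vehicle library. The difference was -0.63 (SE 0.11, limma adjusted p = 0.00808).

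HK2, hexokinase 2, phosphorylates glucose as it enters the cell. Vehicle libraries gave 56.6, 69.9, 61.9, 62.1 and 64.1 FPKM and PFOA libraries 42.7, 43.6, 43.2, 40.7 and 45.3 FPKM, with no overlap and a narrower spread with PFOA. HK2 fell by 0.53 on the log2 scale (SE 0.08, limma adjusted p = 4.28e-04). PFKFB4, which sets the level of the allosteric activator fructose 2,6-bisphosphate, had 14.1, 15.4, 11.2, 10.9 and 9.79 FPKM with vehicle against 8.44, 7.71, 7.82, 8.42 and 7.65 FPKM with PFOA. All PFOA libraries of PFKFB4 lay under all vehicle libraries, and the difference was -0.54 (SE 0.10, limma adjusted p = 0.0120).

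The remaining glycolysis genes did not pass. PDK3, a kinase that holds pyruvate back from the mitochondria, and PFKFB3 had no overlap between the groups, with differences of -0.30 (adjusted p = 0.160) and -0.25 (adjusted p = 0.341). LDHA, which turns pyruvate into lactate, was at 636 ± 98.2 FPKM with vehicle and 540.0 ± 45.9 FPKM with PFOA (SD, n = 5 each), a difference of -0.23 (limma adjusted p = 0.859); these 3 genes were chosen after their values were seen. Of the 24 members, 22 had negative differences, 5 of them at an unadjusted p under 0.05, and the median was -0.13 against -0.01 over all genes tested. The median of these members against the same vehicle libraries was -0.19 with atrazine, -0.10 with DEHP, -0.26 with tributyltin and -0.07 with bisphenol A.

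Other genes known to be induced by low oxygen gave 7 calls among 40 tested, all lower: STC1, EGLN1, RIOK3, HK2, KDM3A, AK4 and BHLHE40. With the glycolysis list, in which HK2 also stands, 9 of the 18 called genes belonged to 63 tested genes of these lists, which were also written with the earlier results known. RIOK3, an atypical protein kinase, was at 36.8, 37.8, 38.8, 31.5 and 35.0 FPKM with vehicle and 27.3, 24.7, 25.6, 24.1 and 26.1 FPKM with PFOA, a difference of -0.47 (SE 0.06, limma adjusted p = 9.98e-05). AK4, a mitochondrial adenylate kinase, ranged over 109.6 to 148 FPKM with vehicle and 87.4 to 102 FPKM with PFOA, and it was the only call among 5 adenylate kinases tested. BHLHE40, a transcriptional repressor that also takes part in the circadian clock, ranged over 6.92 to 10.2 FPKM and 4.47 to 5.84 FPKM; the top of its vehicle range was replicate 2. The differences were -0.43 for AK4 and -0.55 for BHLHE40 (limma adjusted p = 0.0324 for both).

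The 40 genes of that list had 32 negative differences, 21 of them at an unadjusted p under 0.05 and none positive at that level, and a median of -0.23. Over all genes tested, 52.1% were negative, 4.14% were lower at that level, and the median was -0.01. The median level of the list per library, in log2(FPKM + 1), was 4.00 to 4.25 with vehicle and 3.61 to 3.91 with PFOA, without overlap. Its median difference from the same vehicle libraries was -0.20 with atrazine, -0.13 with DEHP, -0.45 with tributyltin and -0.04 with bisphenol A. SAP30, a subunit of the SIN3 histone deacetylase complex, was the nearest member outside the threshold, at 12.4 to 16.7 FPKM with vehicle and 8.06 to 11.0 FPKM with PFOA (-0.51, adjusted p = 0.0508). Several classical HIF targets, named here after their values were seen, had differences near 0: VEGFA, the vascular growth factor, had a difference of 0.12, the carbonic anhydrase CA9 0.10 and NDRG1 0.04, none of which passed (limma adjusted p of 1.00, 1.00 and 1.00). The sign of CA9 turned without PFOA replicate 3 or vehicle replicate 3, and that of NDRG1 without PFOA replicate 2, PFOA replicate 3 or vehicle replicate 4. ADM, adrenomedullin, was at 2.94, 4.64, 2.50, 3.05 and 2.53 FPKM with vehicle and 1.82, 1.94, 1.74, 1.48 and 0.976 FPKM with PFOA, a difference of -0.67 that did not pass (adjusted p = 0.279), although every PFOA library lay below every vehicle library.

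The oxygen-sensing machinery gave 1 call, EGLN1, among 13 genes tested. HIF1A, the oxygen-regulated subunit, was at 109, 85.6, 132, 121 and 106 FPKM with vehicle and 139, 119, 125, 123 and 107 FPKM with PFOA, overlapping, with a difference of 0.16 and a 95% interval of -0.07 to 0.38 (adjusted p = 1.00). ARNT, its partner, had a difference of -0.10, EGLN2 one of 0.26 (adjusted p = 0.799) and the coactivator CREBBP one of -0.17 (adjusted p = 0.671). EPAS1, which encodes HIF-2 alpha, averaged 0.375 FPKM with vehicle and 0.422 FPKM with PFOA and was below the filter. The symbol VHL was not among the 16048 genes of the series, so VHL was not analysed. The list's median was -0.02, and its sign changed under quantile normalization.

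Jumonji demethylases with SIN3 complex genes, and collagen-modifying enzymes, were described next. KDM3A, a histone H3 lysine 9 demethylase of the jumonji family, was at 22.1, 33.8, 34.4, 26.6 and 27.3 FPKM with vehicle and 18.9, 20.7, 19.9, 19.6 and 19.1 FPKM with PFOA. Its vehicle libraries were spread widely and its PFOA libraries lay close together, without overlap, and the difference was -0.51 (SE 0.10, limma adjusted p = 0.0324). KDM3A was the only call among 20 jumonji demethylase and SIN3 complex genes. Of the 20, 18 had negative differences, 10 at an unadjusted p under 0.05, and the median was -0.17. Over all genes tested, 52.1% were negative, 4.14% were lower at that level, and the median was -0.01. Against the same vehicle libraries the list's median was -0.13 with atrazine, -0.14 with DEHP, -0.20 with tributyltin and -0.07 with bisphenol A. KDM2B, a demethylase that brings polycomb to CpG islands, differed by -0.34 between PFOA and vehicle (limma adjusted p = 0.107), without overlap. Among 11 collagen-modifying enzymes none passed; P4HA1 and P4HA2, the catalytic subunits of collagen prolyl 4-hydroxylase, had differences of -0.39 and -0.35 (adjusted p = 0.282 for both), and LOX, lysyl oxidase, -0.31 (adjusted p = 0.548).

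The other 6 called genes were in none of the lists. SLFN5, a Schlafen family gene linked to interferon responses, was at 1.58 to 2.34 FPKM with vehicle and 0.817 to 1.23 FPKM with PFOA (-0.49, adjusted p = 0.0120). MAP3K1, a kinase upstream of JNK and ERK, was at 25.7 to 34.6 FPKM and 20.8 to 23.3 FPKM (-0.43, adjusted p = 0.0324). TNIP1, which restrains NF-kappa B signalling through A20, was at 13.9 to 16.6 FPKM and 10.1 to 12.1 FPKM (-0.41, adjusted p = 0.0324). None of these 3 overlapped between the groups.

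RAB2B, a small GTPase of the early secretory pathway, ZNF395, a zinc finger factor, and PTPRB, a receptor tyrosine phosphatase best known from endothelium, were called with overlapping libraries. RAB2B lay at 39.1 to 57.5 FPKM with vehicle and 27.3 to 39.7 FPKM with PFOA (-0.49, adjusted p = 0.0324). ZNF395 lay at 13.4 to 17.8 FPKM and 9.57 to 13.4 FPKM (-0.47, adjusted p = 0.0425), and PTPRB at 4.22 to 6.00 FPKM and 2.60 to 4.37 FPKM (-0.57, adjusted p = 0.0425). In each case a single vehicle library reached into the PFOA range.

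The calls were not all equally firm. STC1, EGLN1, RIMKLA, NRN1, RIOK3, HK2 and SLC2A1 passed in every one of the 26 alternative fits that tested them, while each of the other 11 lost its call in at least 5, and no called gene changed sign. The count of 18 dropped to 7 without vehicle replicate 2, 8 without PFOA replicate 2, 9 without vehicle replicate 3, 9 without PFOA replicate 4, and 11 without PFOA replicate 1 or PFOA replicate 5; it was 7 with the 10 PFOA and vehicle libraries fitted alone.

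Just outside the threshold on the lower side stood HELZ, an RNA helicase, with SAP30, both at an adjusted p of 0.0508. HELZ was at 24.6 to 37.2 FPKM with vehicle and 21.0 to 24.1 FPKM with PFOA. They were followed by the magnesium transporter SLC41A1 (-0.26), SPATA13 (-0.34), KCTD12 (-0.45), the forkhead factor FOXN3 (-0.27), PCYT1B of phosphatidylcholine synthesis (-0.32) and FAM219A (-0.34), with limma adjusted p-values of 0.0623 to 0.102. In all 8, each PFOA library lay below each vehicle library, as in 1.01% of all genes tested. The 8 were picked by small p-value, so this separation follows largely from the choice.

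On the higher side no gene passed. The smallest p belonged to SLC6A9, a glycine transporter, at 5.02, 4.76, 4.98, 5.58 and 5.13 FPKM with vehicle and 6.72, 6.35, 6.51, 6.23 and 7.32 FPKM with PFOA, a difference of 0.32 (SE 0.09, limma adjusted p = 0.209). All its PFOA libraries lay above all vehicle libraries, as did those of APOBEC2 (0.40), NCALD (0.31) and TRIB3 (0.69). These genes too were picked by small p-value, and 0.28% of all genes tested separated in this direction. TRIB3, a pseudokinase induced by amino acid and endoplasmic reticulum stress, was at 0.968 to 1.93 FPKM with vehicle and 2.42 to 4.13 FPKM with PFOA (adjusted p = 0.282). NIT1, FAM107A, HAUS7 and the known PPAR target G0S2 had differences of 0.38, 0.42, 0.35 and 0.67, with overlapping libraries.

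PFOA is known as a PPAR ligand, and the receptors and their targets were examined as a group. PPARA was expressed at 3.90, 2.32, 2.38, 2.52 and 1.75 FPKM with vehicle and 2.91, 2.93, 2.28, 2.21 and 2.49 FPKM with PFOA, a difference of 0.02 with an interval of -0.22 to 0.25, and its sign was not stable across fits. PPARD, the broadly expressed receptor, stood at 6.31 ± 0.878 FPKM and 6.00 ± 0.417 FPKM (SD, n = 5 each), a difference of -0.06. PPARG, the receptor of adipocytes, averaged 0.0579 FPKM with vehicle and 0.142 FPKM with PFOA and was below the filter. Of 10 receptors and cofactors tested none was called; NCOA2, MED1 and NCOR1, a pair of coactivators and a corepressor, had the smallest p-values, with differences of -0.19, -0.18 and -0.17 (limma adjusted p of 0.638 to 0.838).

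None of the 29 tested genes of the PPAR target list was called, none reached an unadjusted p of 0.05 in either direction, and every 95% interval held 0. Their differences ran from -0.20 to 0.14, with 14 positive and 15 negative and a median of -0.01, beside -0.01 over all genes tested; the sign of that median changed under both other scalings. The acyl-CoA synthetases ACSL4 and ACSL3, which activate long-chain fatty acids, were among the members with the smallest p. ACSL4 was at 17.6 to 27.4 FPKM with vehicle and 16.3 to 20.6 FPKM with PFOA (-0.20, interval -0.48 to 0.07, adjusted p = 1.00), and ACSL3 had -0.15 (adjusted p = 1.00). CPT1A, the carnitine transferase that admits fatty acids to mitochondria, was added after its values were seen and had a difference of -0.08 with an interval of -0.32 to 0.15. The highest upper bound among these 29 genes was 0.41; 14 further genes of the list were below the filter or not in the table.

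The list does not hold every known PPAR target. G0S2 is outside it and was named for its small p-value on the higher side. Its positive difference was larger than that of any listed gene, but given how it was picked this is no independent evidence. G0S2, an inhibitor of triglyceride lipase, was at 1.56, 1.90, 2.19, 1.55 and 3.23 FPKM with vehicle and 3.69, 3.94, 4.11, 4.43 and 3.08 FPKM with PFOA. All 5 PFOA libraries lay above the vehicle mean, and the groups overlapped only in that vehicle replicate 5 stood above PFOA replicate 5. The difference of 0.67 had an interval of 0.30 to 1.05 and an unadjusted p of 0.00104 that did not pass after adjustment (limma adjusted p = 0.249). It passed with library weights (limma adjusted p = 0.0236) and without the libraries numbered 1 and 5 (limma adjusted p = 0.0204). The latter fit leaves out vehicle replicate 5 and PFOA replicate 5, the libraries that overlapped. Over all alternatives run for G0S2 the limma adjusted p was 0.0204 to 0.672. G0S2 was also higher than the vehicle mean of 2.09 FPKM with atrazine, at 4.23 FPKM, with a difference of 0.71 that did not pass (limma adjusted p = 0.139).

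**Figure D3:**
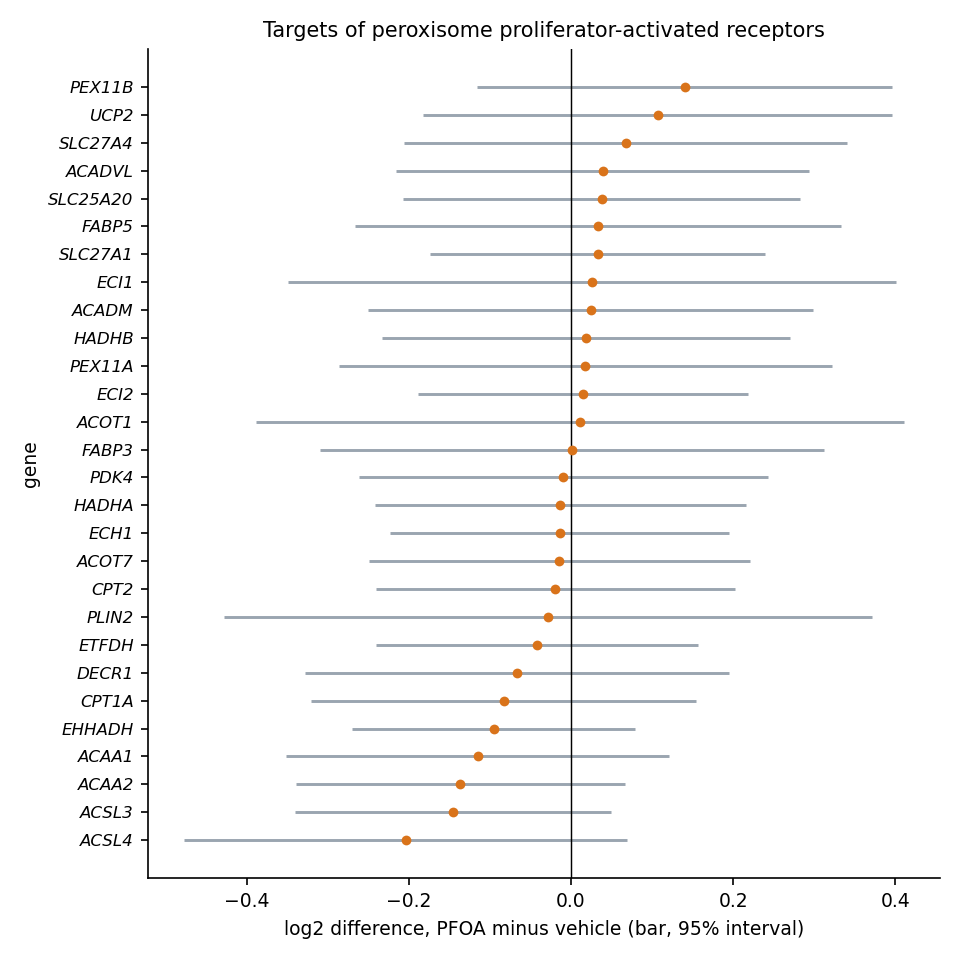
Difference in log2(FPKM + 1) between PFOA and vehicle (horizontal axis) for 28 of the 29 tested genes of the PPAR target list (vertical axis), which does not hold G0S2, with bars for the 95% interval of the limma fit. The points lie between -0.20 and 0.14 and every bar crosses 0.

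Lipid synthesis leaned to lower values without a call. Among 23 cholesterol synthesis genes, 19 had negative differences, 10 of them at an unadjusted p under 0.05, and the median was -0.18. Over all genes tested, 52.1% were negative, 4.14% were lower at that level, and the median was -0.01. In no gene of the list did the libraries of the groups separate fully. Against the same vehicle libraries its median was -0.22 with atrazine, -0.17 with DEHP, -0.20 with tributyltin and -0.02 with bisphenol A. LSS, lanosterol synthase, which closes the sterol ring system, was at 4.19, 3.32, 2.55, 3.18 and 3.79 FPKM with vehicle and 2.59, 1.61, 2.09, 2.47 and 3.79 FPKM with PFOA, a difference of -0.35 that did not pass (adjusted p = 0.640). The median level of the list per library was 4.20 to 4.66 with vehicle and 4.05 to 4.58 with PFOA, so that the groups overlapped widely. Of 14 fatty acid synthesis and desaturation genes 11 were negative and none was called; ACLY (-0.23), SCD (-0.24) and ME1 (-0.24) had the smallest p-values (limma adjusted p of 0.671 to 0.768).

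Some lists leaned to higher values, again without a call. FOS, an immediate early transcription factor, was at 2.51, 2.11, 1.74, 3.21 and 1.75 FPKM with vehicle and 4.41, 11.4, 4.55, 4.47 and 4.40 FPKM with PFOA. PFOA replicate 2 was far above the others, and all PFOA libraries lay above all vehicle libraries; the difference was 1.00 (SE 0.32, limma adjusted p = 0.446). DUSP2, a phosphatase that shuts off ERK, separated in the same way (0.45, adjusted p = 0.508), and IER2 and DUSP1 had differences of 0.33 and 0.24. Of 20 immediate early genes 15 were positive, 5 at an unadjusted p under 0.05, with a median of 0.19. Over all genes tested, 1.68% were higher at that level and the median was -0.01. The list's median against the same vehicle libraries was 0.11 with atrazine, 0.04 with DEHP, 0.09 with tributyltin and 0.19 with bisphenol A.

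Cytoplasmic ribosomal protein genes had positive differences in 73 of 77, none at an unadjusted p under 0.05, with a median of 0.10. Over all genes tested, 5293 of 11059 were positive and the median was -0.01. The median level of the list per library overlapped widely, at 10.09 to 10.72 with vehicle and 10.26 to 10.64 with PFOA. Its median difference from the same vehicle libraries was -0.07 with atrazine, 0.05 with DEHP, 0.03 with tributyltin and -0.12 with bisphenol A. RPL7 (0.20) and RPS20 (0.30) were among those with the smallest p-values; these genes have many near-identical pseudogene copies, so that their values are uncertain. Among 23 genes of serine and one-carbon metabolism and ATF4 targets, 16 were positive with a median of 0.09: next to TRIB3, ATF4 itself, the transcription factor of the amino acid response, had 0.26 (adjusted p = 0.608) and asparagine synthetase ASNS 0.16. GSTK1, a peroxisomal glutathione transferase in the list of xenobiotic metabolism, was at 2.02, 0.134, 3.94, 0.0883 and 1.27 FPKM with vehicle and 7.22, 4.27, 5.05, 2.35 and 2.28 FPKM with PFOA. Its difference of 1.22 did not pass, and the vehicle libraries differed widely among themselves (SE 0.45, limma adjusted p = 0.633). GSTA4 (0.25) and the aldehyde dehydrogenase ALDH3A2 (-0.21) followed in that list of 21 genes tested, which gave no call.

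The pluripotency genes did not pass in either direction. POU5F1 was at 478, 672, 452, 428 and 586 FPKM with vehicle and 501, 552, 558, 604 and 552 FPKM with PFOA, a difference of 0.10 with an interval of -0.15 to 0.35. NANOG had a difference of -0.03 (interval -0.18 to 0.11, its sign turning under quantile normalization), SOX2 -0.09 and the RNA-binding protein LIN28A -0.18. Of 21 core and primed pluripotency genes 16 were negative, with a median of -0.11; LIN28B had -0.21 (adjusted p = 0.693). COL1A1, a collagen of fibroblasts, had -0.11 with an interval of -0.46 to 0.25.

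**Figure D4:**
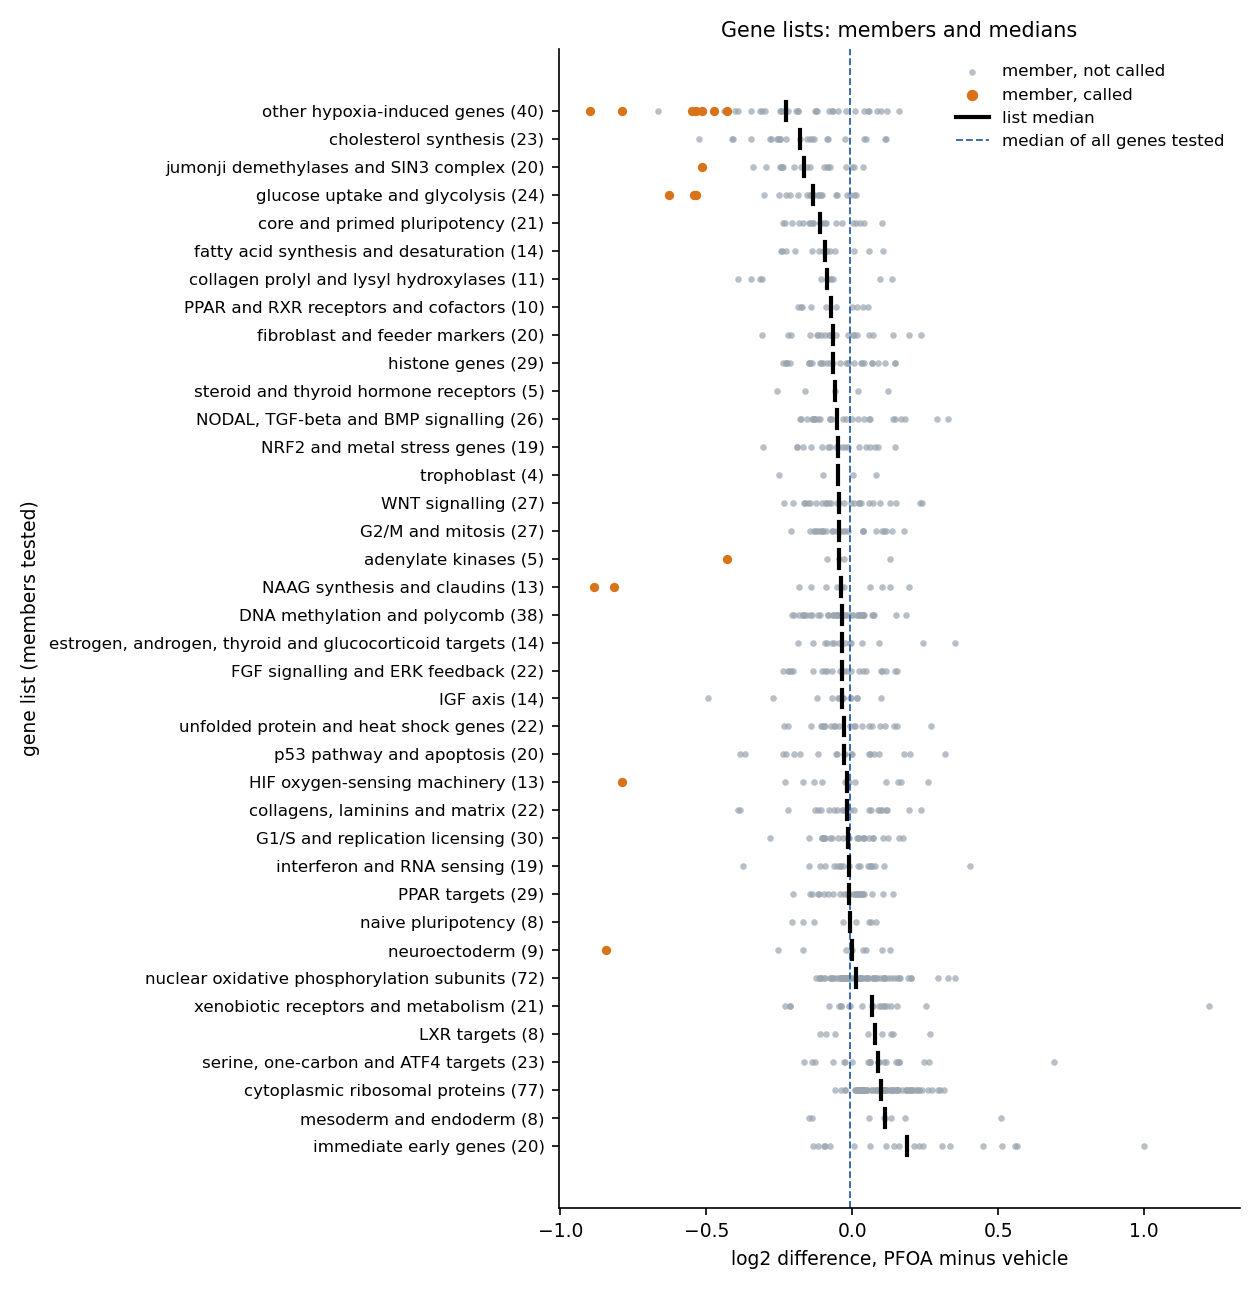
Difference in log2(FPKM + 1) between PFOA and vehicle (horizontal axis) for the members of 38 gene lists (vertical axis, with the number of members tested); grey points are members that were not called, orange points called members, black lines list medians, and the dashed line the median of all genes tested. The list of other hypoxia-induced genes has the lowest median, -0.23, and the immediate early genes the highest, 0.19.

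The lists of signalling, cell cycle, apoptosis, interferon and polycomb genes gave no call, and their medians lay between -0.05 and -0.01; those of the G1/S and interferon lists turned positive under both other scalings. In the IGF axis, IGFBP5, a secreted binding protein, was at 3.53 to 5.49 FPKM with vehicle and 2.24 to 3.09 FPKM with PFOA (-0.50, adjusted p = 0.172) and the mRNA-binding protein IGF2BP1 had -0.27 (adjusted p = 0.117). The polycomb cofactor JARID2 (-0.20), the methylcytosine oxidase TET3 (-0.18) and the remodeller CHD4 (-0.21) led the DNA methylation and polycomb list. GRB2 (-0.22) and the ERK feedback inhibitor SPRY4 (-0.24) led FGF signalling, and the receptor FZD5 (-0.23) was among the WNT genes. CASP8, the initiator caspase of death receptors, was -0.37 without overlap (adjusted p = 0.331), APAF1 of the apoptosome -0.24 and PMAIP1, the BH3-only protein NOXA, 0.32. Cyclin D2, encoded by CCND2, had -0.28 and topoisomerase TOP2A -0.21, while DDX58, the RNA sensor RIG-I, had -0.37 (adjusted p = 0.279).

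In matrix genes, COL11A1, a fibrillar collagen, was at 36.4 to 49.0 FPKM with vehicle and 25.7 to 35.3 FPKM with PFOA, without overlap (-0.39, adjusted p = 0.279), and COL6A3 had 0.24. Hormone receptors and their targets gave no call among 5 and 14 genes tested: the orphan receptor RORA had -0.26 and TSC22D3, the glucocorticoid-induced leucine zipper GILZ, 0.35 (limma adjusted p of 0.578 or more). The tight junction scaffold TJP1 had -0.18.

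The 18 genes were also read in the other compounds. Each compound is set against the same 5 vehicle libraries, so these differences are not independent of those of PFOA. STC1 differed from vehicle by -0.90 with PFOA, -0.85 with atrazine, -0.66 with DEHP, -1.49 with tributyltin and -0.13 with bisphenol A. EGLN1 differed by -0.79, -0.74, -0.47, -0.98 and -0.15 in the same order, and SLC2A1 by -0.63, -0.66, -0.30, -0.79 and -0.13. All 18 were negative with atrazine, DEHP and tributyltin, and 16 of 18 with bisphenol A, where BHLHE40 was at 0.27 and PTPRB at 0.09. Over all genes tested, 51.7%, 52.7%, 55.1% and 56.5% of the differences were negative in that order of compounds. The 18 were picked as low against these same vehicle libraries, so their signs are no independent evidence. Of the 18, limma called 14 with atrazine, 1 with DEHP, 18 with tributyltin and 0 with bisphenol A (adjusted p under 0.05). The median over the 18 genes was -0.54 with PFOA, -0.54 with atrazine, -0.40 with DEHP, -0.75 with tributyltin and -0.14 with bisphenol A.

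**Figure D5:**
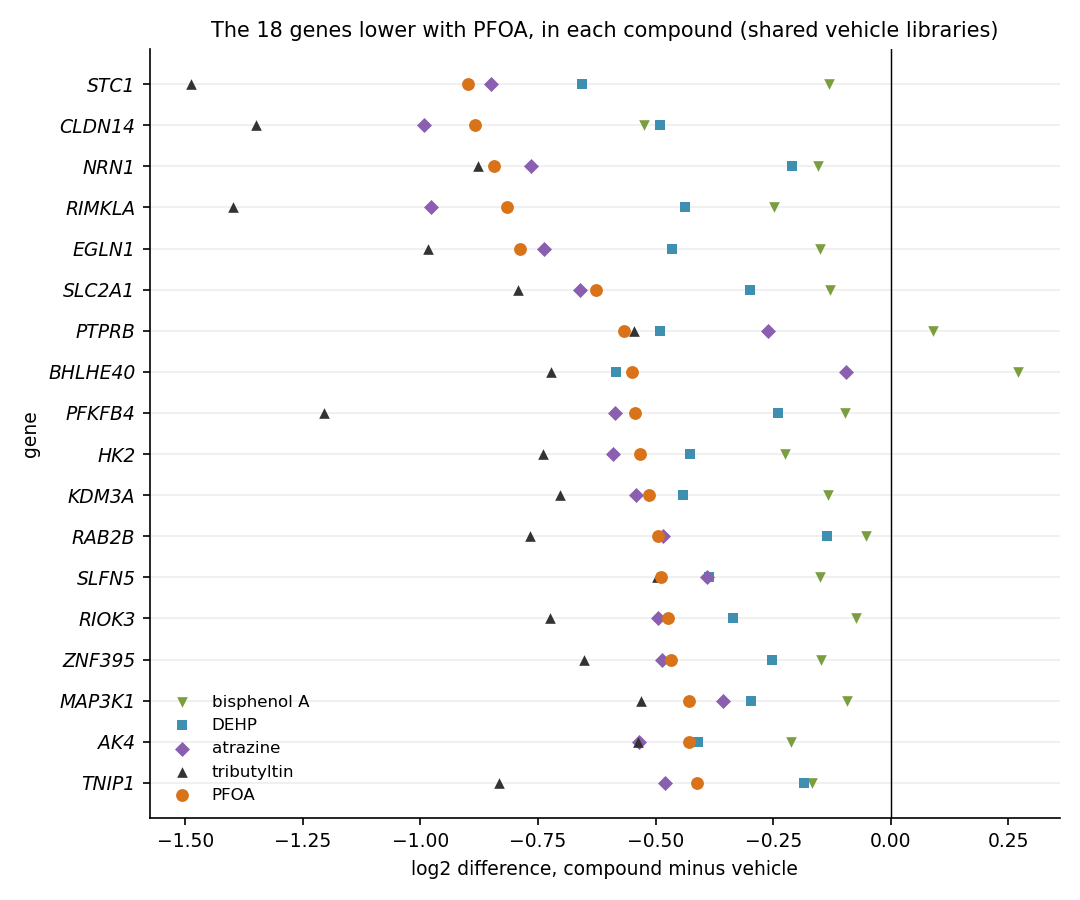
Difference in log2(FPKM + 1) from vehicle (horizontal axis) of the 18 genes called lower with PFOA (vertical axis, ordered by the PFOA difference), for each of the 5 compounds; every point uses the same 5 vehicle libraries. STC1 runs from -1.49 with tributyltin to -0.13 with bisphenol A, and BHLHE40 and PTPRB lie above 0 with bisphenol A.

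Compounds were therefore also compared directly, without the vehicle libraries entering the difference. Against atrazine, limma called no gene higher or lower with PFOA (smallest adjusted p = 0.113; 150 higher and 230 lower at an unadjusted p under 0.05). STC1 differed between them by -0.05 (interval -0.27 to 0.17), EGLN1 by -0.05 (interval -0.25 to 0.15) and RIMKLA by 0.16 (interval -0.04 to 0.37). BHLHE40 had the largest gap of the 18, -0.45 with PFOA lower (interval -0.69 to -0.22), and did not pass (adjusted p = 0.524).

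Against DEHP, limma again called no gene (smallest adjusted p = 0.122; 262 higher and 154 lower at an unadjusted p under 0.05). Of the 18 genes, 17 were lower with PFOA than with DEHP, against 50.6% of all genes tested. The 18 were picked as low in these same PFOA libraries, so the count of 17 is no independent evidence. NRN1 was furthest apart, at 0.595 ± 0.175 FPKM with PFOA (SD, n = 5) and 1.47 ± 0.182 FPKM with DEHP (SD, n = 4), a difference of -0.63 with an interval of -0.88 to -0.39 (limma adjusted p = 0.122); without vehicle replicate 3 or vehicle replicate 5, which enter only through the shared spread, NRN1 passed. STC1 differed by -0.24 and EGLN1 by -0.32. Against the mean of atrazine, DEHP and tributyltin no gene was called either, with 208 higher and 133 lower at an unadjusted p under 0.05.

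Against tributyltin, limma called 18 genes (0.163%), 5 higher and 13 lower with PFOA. The 5 higher genes were PFKFB4, RIMKLA, STC1, TNIP1 and LRFN5, a synaptic adhesion protein; the first 4 of these were also lower with PFOA than with vehicle, and stood lower still with tributyltin. PFKFB4 averaged 8.01 ± 0.389 FPKM with PFOA and 4.73 ± 0.758 FPKM with tributyltin (SD, n = 5 each), a difference of 0.66 (SE 0.10, adjusted p = 6.35e-04). STC1 averaged 15.2 ± 1.98 FPKM and 9.72 ± 1.03 FPKM, a difference of 0.59 (adjusted p = 0.0106). RIMKLA differed by 0.58 (adjusted p = 0.00440). The other 14 of the 18 genes lower with PFOA than with vehicle did not pass, EGLN1 for example with 0.20 (interval -0.00 to 0.39). The 5 higher genes became 3 without PFOA replicate 2, 3, 4 or 5, and the 13 lower genes became 7 without PFOA replicate 2 and 8 without PFOA replicate 4.

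The genes lower with PFOA than with tributyltin were led by ABCA1, the cholesterol exporter that liver X receptors induce. ABCA1 averaged 14.4 ± 2.38 FPKM with vehicle, 16.1 ± 3.59 FPKM with PFOA and 53.5 ± 3.60 FPKM with tributyltin (SD, n = 5 each), so that the gap of -1.70 (SE 0.16, limma adjusted p = 1.50e-07) stood beside a difference of 0.14 between PFOA and vehicle. SLC25A20, the mitochondrial carnitine-acylcarnitine carrier, and ACSL3, both on the list of PPAR targets, differed by -0.79 and -0.68, and by 0.04 and -0.15 between PFOA and vehicle. CYP26A1 (-0.69), which degrades retinoic acid, SPRED2 (-0.58), an inhibitor of RAS signalling, and ARHGAP36 (-0.77) came next.

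The remaining 7 of these 13 genes, named after their values were seen, were the morphogen NODAL (-0.58) and its antagonist LEFTY2 (-0.70), the sulfatase SULF2 (-0.43), the retinoic acid receptor RARB (-0.61), the retinol dehydrogenase RDH11 (-0.43), the taurine transporter SLC6A6 (-0.39) and TRIM22 (-0.50), with limma adjusted p-values of 0.0107 to 0.0333. None of the 13 was called between PFOA and vehicle.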

How the data were processed

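RNA of 29 libraries was compared at the level of genes. Libraries were made from 100 ng of RNA by Ribo-SPIA amplification and read over 50 nt from a single end, per the labels' protocols. The deposited table holds FPKM values, scaled by the authors to transcript length and depth. The submitters' processing notes name TopHat2 2.1.1, SAMtools, Cuffdiff 2.2.1 and the mouse build GRCm38.p5, whose use they do not state. The sources used here give neither the rhesus build nor the handling of reads from feeder cells. Rows have human gene symbols, and no coordinates or sequences were analysed here.

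Columns were matched to samples by title. The 10 PFOA and vehicle libraries had to average at least 1 FPKM for a gene to be tested, and values entered as log2(FPKM + 1). limma 3.58.1 in R 4.3.3 fitted all 29 libraries with 6 groups and a mean-variance trend (two-sided, Benjamini-Hochberg over 11059 genes, threshold 0.05); a count model was not used because FPKM are not counts. The fit was tested on simulated data. FPKM of low genes fall on steps worth 1 read, which gave the relative depth: among 10284 values of 1480 genes, 85.8% came within 0.1 step of a whole multiple. The step of a gene was its own smallest non-zero value after scaling for depth. That value is a whole multiple by construction, and others can come that near by chance. Absolute depth is unknown, so no counting interval is given. Single summed values were compared with an exact permutation test over the 252 splits of 5 against 5.

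The groups compared, the 38 gene lists and the named genes were chosen with earlier results of these data known. Named genes were all called genes, the 8 smallest p-values in each direction among genes not called, up to 3 members per list by p, up to 8 called genes per comparison with another compound, and 12 marker and receptor genes; others are marked where they appear, and 5 named by the rule are not reported here. Lists are described by counts and medians, with no test of a list. Alternatives changed the pseudocount, filter, scaling or groups fitted, blocked on the replicate number, estimated the spread in other ways, weighted libraries, added a feeder covariate or left libraries out.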

Additional observations from a re-analysis of the deposited data

Results flagged for a closer look

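In single libraries, 8 of 230 groups of 5 (the vehicle and PFOA groups of 115 named genes) held a value that lay apart from the other 4 by more than 0.71 of the group's range, a cut that chance passes in about 1 of 20 groups. On the vehicle side, RIMKLA was 4.71 FPKM in replicate 5 against 6.60 to 7.26 in the others, PTPRB 4.22 FPKM in replicate 5 against 5.52 to 6.00, and JARID2 107 FPKM in replicate 5 against 123 to 127. BHLHE40 reached 10.2 FPKM in replicate 2 against 6.92 to 7.50, and ADM 4.64 FPKM in replicate 2 against 2.50 to 3.05. SPRY4 was at 32.7 FPKM in replicate 4 against 29.2 to 30.2.

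On the PFOA side, FOS was 11.4 FPKM in replicate 2 against 4.40 to 4.55 in the others, and SLC25A20 1.46 FPKM in replicate 5 against 2.18 to 2.44. Of these 8 genes, RIMKLA, PTPRB and BHLHE40 were called lower with PFOA; without the library in question RIMKLA (limma adjusted p = 2.80e-06) and PTPRB (limma adjusted p = 0.0125) still passed and BHLHE40 did not (limma adjusted p = 0.173).

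Effects that differed between compounds were those of PFOA and tributyltin, tested directly with limma. In log2 units, PFOA minus tributyltin, they were -1.70 for ABCA1, -0.79 for SLC25A20, -0.77 for ARHGAP36, -0.70 for LEFTY2, -0.69 for CYP26A1, -0.68 for ACSL3, -0.61 for RARB, -0.58 for NODAL, -0.58 for SPRED2, -0.50 for TRIM22, -0.43 for SULF2, -0.43 for RDH11 and -0.39 for SLC6A6. PFKFB4 (0.66), STC1 (0.59), RIMKLA (0.58), LRFN5 (0.47) and TNIP1 (0.42) were higher with PFOA than with tributyltin.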

How the results depend on the processing

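Results were recomputed under 26 alternatives. The count of 18 genes lower with PFOA than with vehicle stayed within 1.5 times under other pseudocounts, filters and scalings, and moved to 7 with the 10 PFOA and vehicle libraries alone, 56 with library weights and 11 without the libraries numbered 1 and 5; leaving out 1 library gave 7 to 23. The count of 0 higher genes became 1 with the 10 libraries alone (RHBDL1), without bisphenol A (TRIB3), with library weights and without the libraries numbered 1 and 5 (G0S2 in both), and was 0 to 1 with a library left out (KIAA0101). Nothing in the labels ties equal replicate numbers, so the numbers were not taken as pairs. The deviations of same-numbered PFOA and vehicle libraries correlated at 0.45, -0.14, 0.41, -0.17 and 0.25, which is mixed and does not settle whether equal numbers belong together. With a replicate block over all 6 groups, 63 genes were lower with PFOA than with vehicle, and with the replicate block in the 10 libraries only 9 were; the block over all groups gave 2 genes lower with PFOA than with atrazine, and 18 higher and 32 lower than with tributyltin. Of the 5 PFOA libraries, 3 correlated best with their own number.

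Other counts that moved were, with library weights, 1 gene higher and 5 lower than with atrazine, 1 lower than with DEHP, and 35 higher and 34 lower than with tributyltin. Without bisphenol A 1 gene, PDE8A, was lower than with atrazine, and 1 gene was lower than with DEHP after quantile normalization. With the feeder covariate 9 genes were higher with PFOA than with tributyltin, and without the libraries numbered 1 and 5 the counts were 1 higher and 4 lower. Leaving out 1 library gave 0 to 1 genes lower than with DEHP, 3 to 7 higher than with tributyltin and 7 to 14 lower. The cause of these moves was not tested.

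Signs turned in differences between PFOA and vehicle that were not called. RARB was -0.028 with library weights and -0.13 without the libraries numbered 1 and 5. NANOG was 0.017 after quantile normalization and 0.0013 without the libraries numbered 1 and 5. PPARA was -0.016 after quantile normalization and -0.013 with the feeder covariate. With 1 library left out in turn, CA9 ran from -0.065 to 0.23, COL1A1 from -0.23 to 0.015, CPT1A from -0.17 to 0.033, CYP26A1 from -0.017 to 0.091, NDRG1 from -0.047 to 0.13, PPARA from -0.071 to 0.14, RARB from -0.048 to 0.11 and SLC25A20 from -0.0097 to 0.12. Depth relative to the deepest library went down to 41.2%, and 95% intervals that typically reached 0.23 to either side limit what could be seen.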

Other observations

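A few genes differed widely between vehicle libraries and gave large differences that did not pass; they were picked after their values were seen. NNAT, an imprinted gene that encodes neuronatin, was at 96.9, 1.80, 176, 3.55 and 87.6 FPKM with vehicle and 217, 133, 262, 126 and 64.6 FPKM with PFOA, a log2 difference of 2.34 (SE 0.99, limma adjusted p = 0.716). Vehicle replicates 2 and 4 stood under 4 FPKM, while the other 8 libraries stood above 60. In vehicle replicate 2 alone, the zinc finger gene ZNF280D was at 0.435 FPKM against 6.11 or more in the other vehicle libraries, ZNF483 at 0.674 FPKM against 9.16 or more, and RPUSD3, a pseudouridine synthase, at 0.164 FPKM against 3.02 or more. Their differences were 0.90, 0.71 and 0.87, with limma adjusted p-values of 0.852 to 1.00.

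The libraries with PFOA varied less than those with vehicle. The median SD of a gene on the log2 scale was 0.138 with PFOA and 0.176 with vehicle. Over the 18 genes called lower it was 0.106 and 0.194. Those 18 were picked by a test on the same libraries, so their spread is no independent evidence.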
